A study of Homo sapiens with 33 samples.

Results

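The 8 histone genes described here, HIST1H1C, HIST1H1E, HIST1H2AC, HIST3H2A, HIST1H2BD, HIST1H2BK, HIST2H2BE and HIST1H4H, were taken by name from 3 tables in which the authors compared GABPB1 knockout cells with controls. They are 8 of 15149 gene names in the tables, and all had a row in both total-knockout tables, while HIST1H4H had none in the A-375 long-form table. The list was chosen by name with the deposited log2 changes of all 3 tables known, and the A-375 total-knockout values are treated here as the ones that chose it. Counts of these genes past a threshold, and their p-values in any of the 3 tables, therefore describe the choice and support nothing.

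GABPB1 encodes a B subunit of GABP, an ETS-family transcription factor complex in which GABPA binds DNA. RNA was sequenced from A-375, a human melanoma line, and UM-UC-3, a human bladder cancer line, after CRISPR editing and growth of single clones. The A-375 total knockout pooled 4 B1KO libraries, with exons 2 to 9 of GABPB1 deleted, and 8 B1X2KO libraries, with exon 2 deleted, from 9 clones in all. The A-375 long-form knockout (B1LKO) had exon 9 deleted, in 2 libraries from 2 clones. The UM-UC-3 total knockout pooled 4 B1KO and 5 B1X2KO libraries from 8 clones. Clones were grown from cells sorted for GFP after transfection of a Cas9 plasmid, so several libraries can share 1 edited clone. The controls were 4 libraries edited at ROSA26, a safe-harbour locus, and 2 parental ones in A-375, and 3 ROSA26 and 1 parental library in UM-UC-3. The tables are named for parental controls and do not say whether ROSA26 libraries entered each fit, and in UM-UC-3 there may have been 1 control library only.

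Most histone mRNAs are made in S phase, when DNA is copied, and end in a short stem-loop bound by SLBP in place of a poly(A) tail. Such mRNAs are called replication-dependent and fall away when replication stops. A subset of these genes also carries a poly(A) signal downstream of the stem-loop and can yield longer, polyadenylated mRNAs, which are known from differentiated and non-dividing cells. Linker histone H1 sits on the DNA between nucleosomes, and H2A, H2B, H3 and H4 form the core that DNA wraps around.

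The ends of the annotated transcripts bear on the name of the group, since per the labels' protocols the libraries were made with an mRNA kit. The tables hold no measure of tail length, so whether the reads came from tailed molecules was not tested. In the GENCODE release 29 annotation of hg38, the stem-loop pattern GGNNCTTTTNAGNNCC was found in transcripts of 5 of the 8 genes. It was present in 0.0619% of 206694 transcripts of all genes and in at least 1 transcript of 34 of 90 histone genes. A poly(A) signal (AATAAA or ATTAAA) lay within 40 bases of a transcript end in the same 5 genes. The stem-loops are shown in capitals with 5 bases on either side, because they mark where a replication-dependent mRNA ends.

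HIST1H2AC: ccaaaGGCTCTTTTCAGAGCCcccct
HIST3H2A: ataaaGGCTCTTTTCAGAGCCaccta
HIST1H2BD: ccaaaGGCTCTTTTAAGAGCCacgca
HIST2H2BE: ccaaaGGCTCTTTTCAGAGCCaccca
HIST1H4H: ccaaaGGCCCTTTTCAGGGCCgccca

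The HIST2H2BE transcript ran on for 1729 bases past this element and ended 24 bases after the start of an AATAAA. HIST3H2A ran on for 390 bases and ended 24 bases after the start of an ATTAAA. HIST1H2AC had up to 1128 bases past its stem-loop, and HIST1H4H had 18 in its shortest transcript and 1655 in its longest. HIST1H2BD had a 496-base transcript with the stem-loop and a 789-base transcript without it, and both ended near an AATAAA. HIST1H1C, HIST1H1E and HIST1H2BK held neither pattern in their single annotated transcripts, of 642, 754 and 381 bases. In RefSeq these genes are longer, at 731, 787 and 8566 bases. Bases past the annotated ends were not searched, so whether these genes lack either pattern was not tested.

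The 300-base promoters of all 8 genes (250 bases before to 50 after the start) were found in the RefSeq table for GRCh38.p14. HIST1H2BD and HIST1H2BK had 2 promoters each, and the counts below use only the one at the lower chromosome position. The promoters were searched on both strands for TATAAA, the TATA box, for CCAAT, for ATTTGCAT, the octamer of H2B promoters, and for CCGGAAG, a core bound by ETS proteins such as GABPA. CCAAT was in 7 of the 8 promoters, against 34.6% of 35116 promoters in the table, and TATAAA was in 5 of the 8, against 11.5%. The octamer was in 3 of the 8, against 1.77% (HIST1H2AC, HIST1H2BK and HIST2H2BE). HIST1H4H held none of the 4 motifs, and CCGGAAG and the others did not overlap in the promoters shown. A match is a description of these letters and not of binding. CCGGAAG was in 1 of the 8, HIST1H1E, against 10.3% of all promoters. The promoters of 3 genes are shown with these 4 motifs in capitals, for a gene with a high value in both lines, a gene with nearly equal values in both, and HIST1H1E, which holds the ETS core.

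HIST2H2BE, chr1:149886633-149886932, minus strand: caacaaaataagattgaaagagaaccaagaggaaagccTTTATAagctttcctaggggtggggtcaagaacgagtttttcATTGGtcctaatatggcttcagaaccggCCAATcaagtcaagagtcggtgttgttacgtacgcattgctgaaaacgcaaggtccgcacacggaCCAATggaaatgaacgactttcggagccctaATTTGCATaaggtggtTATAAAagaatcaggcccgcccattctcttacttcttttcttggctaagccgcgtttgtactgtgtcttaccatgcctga
HIST3H2A, chr1:228457824-228458123, minus strand: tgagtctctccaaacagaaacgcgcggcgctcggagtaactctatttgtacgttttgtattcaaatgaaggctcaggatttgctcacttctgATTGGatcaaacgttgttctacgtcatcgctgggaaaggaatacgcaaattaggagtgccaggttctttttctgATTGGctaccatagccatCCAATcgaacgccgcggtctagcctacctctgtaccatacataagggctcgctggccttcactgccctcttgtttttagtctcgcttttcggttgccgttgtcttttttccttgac
HIST1H1E, chr6:26156079-26156378, plus strand: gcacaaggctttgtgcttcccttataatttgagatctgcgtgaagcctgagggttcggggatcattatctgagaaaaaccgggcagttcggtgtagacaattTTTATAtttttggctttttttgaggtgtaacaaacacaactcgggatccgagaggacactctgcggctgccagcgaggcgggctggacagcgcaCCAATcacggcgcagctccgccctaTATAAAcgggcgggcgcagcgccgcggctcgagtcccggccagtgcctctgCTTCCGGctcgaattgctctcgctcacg

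The authors list GABPB1 in separate entries, for the long form (GABPB1L), the short form (GABPB1S) and forms marked DEX2. GABPB1L was lower in every knockout, and changed by -10.60 ± 0.70 on the log2 scale (SE) in the A-375 total knockout, by -12.79 ± 1.47 in the long-form knockout and by -12.60 ± 0.71 in the UM-UC-3 total knockout per the authors' deposited tables. GABPB1L-DEX2 changed by 13.61 ± 1.96 in the A-375 total knockout and by 11.82 ± 1.46 in the UM-UC-3 total knockout per the authors' deposited tables. The entry GABPB1S-DEX2 changed by 12.36 ± 1.88 in the A-375 total knockout, by -12.003 ± 1.48 in the long-form knockout and by 10.15 ± 1.62 in the UM-UC-3 total knockout per the authors' deposited tables. GABPB1S changed by -9.81 ± 0.72 in the A-375 total knockout and by 13.95 ± 1.04 in the long-form knockout per the authors' deposited tables. Changes of this size depend on levels near 0 and are not read as folds. GABPB1S-DEX2 was thus near 0 in the controls of one A-375 table and in the knockout of the other, so these tables differ on which short form the controls held. The cause was not tested, and the check of the labels rests on GABPB1L. The authors tested 14330 genes in the A-375 total knockout, 14156 in the long-form knockout and 13310 in UM-UC-3, and their median log2 changes were -0.05, 0.02 and 0.03. Of 7 melanoma markers, 4 had a row in the A-375 total table (SOX10 14704, S100B 1586, MITF 686 and PMEL 20.1 mean normalized counts), and DCT, TYR and MLANA had none, per the authors' deposited table. The UM-UC-3 table held 5 of them at 38.9 to 357 (SOX10 93.6), DCT and MLANA included, per the authors' deposited table. Of 8 urothelial and epithelial markers, KRT7, KRT8, KRT18 and GATA3 had a row in each table, and UPK1B, UPK2, EPCAM and KRT19 had none. KRT18 had 8029 and KRT8 2449 mean normalized counts for UM-UC-3 and 4835 and 1064 in the A-375 total table per the authors' deposited tables. In the A-375 long-form table they had 13236 and 2373 per the authors' deposited table. Each table was scaled separately, so these keratin counts do not tell the lines apart.

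No table holds a value per library. For each gene, the level in knockout and control was therefore worked out from the fold change, the authors' mean normalized count and the library numbers, with the parental libraries taken as controls. These implied levels are on each table's own scale and are not compared between tables. The spread between libraries, which includes several from 1 clone, enters only through each standard error.

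In the A-375 total knockout, linker, H2A and H2B genes of the group were several-fold above control, and HIST1H1E was not. Of the 8 genes, 6 were called higher at the authors' adjusted p under 0.05 and 0 lower, in a table where 5.07% of genes were called higher and 5.74% lower. The median of the 8 log2 changes was 2.38, beside -0.05 for all genes. These values belong to the comparison that the choice of genes rests on, and they are given without p-values.

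**Figure D1:**
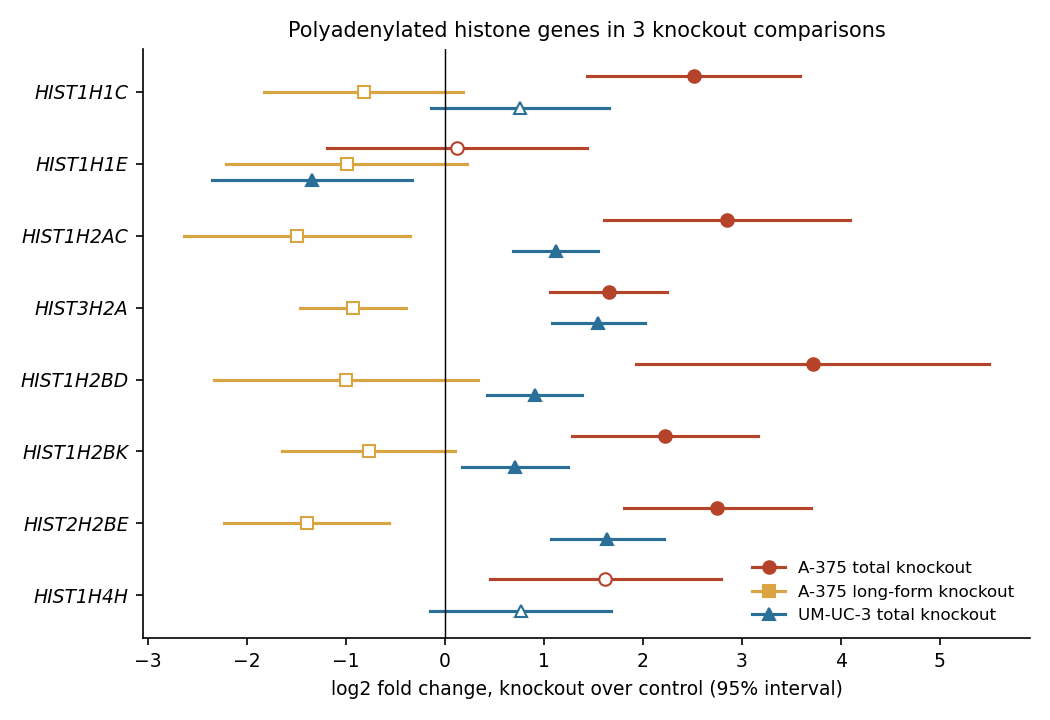
Log2 fold change of knockout over control (x axis) for each histone gene (rows) in the A-375 total (circles), A-375 long-form (squares) and UM-UC-3 total (triangles) knockouts, with 95% intervals from the deposited standard errors as bars. Filled symbols passed the authors' adjusted p of 0.05; the 7 long-form values lie below 0, and HIST1H1E lies near or below 0 in all 3.

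HIST1H1C, which encodes linker histone H1.2 (chromosome 6, 26055787 to 26056428, hg38), had an implied level of 817 normalized counts in A-375 total-knockout cells and 143 in A-375 controls. Its log2 change was 2.52 ± 0.55 per the authors' deposited table, which is 5.73-fold. HIST1H1E, which encodes linker histone H1.4 (chromosome 6, 26156354 to 26157107), had 48.5 in the knockout and 44.5 in controls. Its log2 change was 0.13 ± 0.67 per the authors' deposited table, with a 95% interval from -1.19 to 1.44. Both linker genes lie in the HIST1 cluster, and the difference between their changes was not tested.

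The H2A genes were HIST1H2AC (chromosome 6, 26124145 to 26139116), in the large cluster, and HIST3H2A (chromosome 1, 228456979 to 228457873), in a small cluster of its own. HIST1H2AC had an implied level of 305 normalized counts in the A-375 total knockout and 42.2 in controls, and its log2 change was 2.85 ± 0.63 per the authors' deposited table. HIST3H2A had 304 in the knockout and 96.2 in controls, with a log2 change of 1.66 ± 0.30 per the authors' deposited table. HIST3H2A had the smallest standard error of the 8 genes in this table.

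Of the H2B genes, HIST1H2BD (chromosome 6, 26158146 to 26171349) had the largest log2 change of the 8 genes, 3.72 ± 0.91 per the authors' deposited table, and also the largest standard error. Its implied level was 558 normalized counts in the knockout and 42.4 in controls, and 99.7% of all genes in the table had a lower log2 change. HIST2H2BE (chromosome 1, 149884459 to 149886652) had an implied level of 903 in the knockout and 134 in controls, and its log2 change was 2.76 per the authors' deposited table, or 6.75-fold. HIST1H2BK (chromosome 6, 27146418 to 27146798) had 882 in the knockout and 188 in controls. In the annotation, 74.1% of the 50-base stretches of the HIST1H2BK transcript also occur in transcripts of other genes. That transcript has 381 bases, and the longer RefSeq gene was not searched for shared stretches. How the authors counted reads that match several genes is not known here, so the value of HIST1H2BK is uncertain. The share was 8.11% for HIST2H2BE, 5.95% for HIST1H2BD, 0.591% for HIST3H2A and 0.432% for HIST1H2AC. It was 0% for HIST1H1C, HIST1H1E and HIST1H4H, for which no other annotated transcript holds such a stretch. An antisense transcript overlaps the span of HIST1H2BD, and so does the processed pseudogene LARP1P1 on the same strand. The sources used here do not say whether counting used strand.

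HIST1H4H, an H4 gene (chromosome 6, 26277609 to 26285638), had the lowest level of the group, with a mean of 32.5 normalized counts. Its implied level was 36.0 in the A-375 total knockout and 11.7 in controls, and its log2 change of 1.62 ± 0.60 per the authors' deposited table was not called. It was called when the table was centred on the median of all genes.

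**Figure D2:**
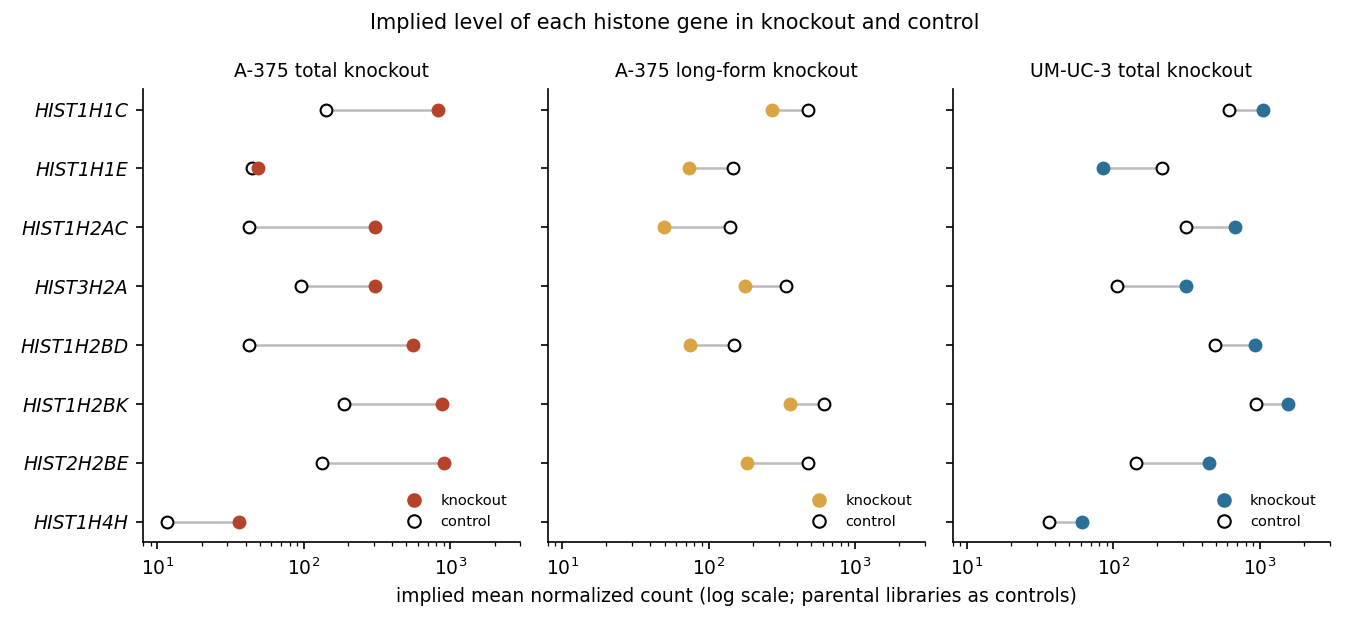
Implied mean normalized count (x axis, log scale) of each histone gene (rows) in knockout cells (filled) and controls (open) in the 3 comparisons, with the parental libraries taken as controls. Knockout lies right of control for all 8 genes in A-375 total knockout, left of control for the 7 genes measured in the long-form knockout, and right of control in UM-UC-3 for all but HIST1H1E.

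In the A-375 long-form knockout, the values of all 7 measured genes were below 0, and none was called. Their log2 changes ran from -1.49 to -0.77 with a median of -0.99, beside 0.02 for all genes per the authors' deposited table. Of all genes in that table, 0.24% were called higher and 0.664% lower by the authors' DESeq2 fit. At an unadjusted p under 0.05, 3 of the 7 histone genes were lower (HIST1H2AC, HIST3H2A and HIST2H2BE), where 6.31% of all genes were. The fit rests on 2 knockout libraries and may share its controls with the total-knockout fit, so the A-375 values are set side by side and were not compared by a test.

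HIST3H2A had an implied level of 177 normalized counts in the long-form knockout and 335 in controls. Its log2 change was -0.92 ± 0.27 (adjusted p = 0.0725 per the authors' deposited table). HIST2H2BE had 183 in the knockout and 480 in controls, and changed by -1.39 ± 0.43 (adjusted p = 0.0882 per the authors' deposited table). HIST1H2AC had 49.9 in the knockout and 141 in controls, with a log2 change of -1.49 ± 0.58 and an adjusted p of 0.269 per the authors' deposited table. HIST1H2BD, with the largest value of the group in the total knockout, had a log2 change of -0.996 ± 0.68 per the authors' deposited long-form table (adjusted p = 0.594). The linker genes had log2 changes of -0.82 ± 0.51 for HIST1H1C and -0.99 ± 0.62 for HIST1H1E per the authors' deposited table. For HIST1H2BK the log2 change was -0.77 ± 0.45 per the authors' deposited table, and its 95% interval ran from -1.64 to 0.11.

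In the UM-UC-3 total knockout, 5 of the 8 genes were higher than in controls and 1 was lower, where 17% of all genes were called higher and 14.2% lower. Those called higher were both H2A genes and the 3 H2B genes, and the linker gene HIST1H1E was called lower. The median log2 change of the 8 genes was 0.84, beside 0.03 for all genes. These values were also known when the genes were chosen, so the authors' adjusted p-values are given as a description.

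HIST3H2A had the smallest adjusted p of the group in UM-UC-3, with an implied level of 313 normalized counts in the knockout and 107 in controls. It rose by 1.55 ± 0.24 on the log2 scale (adjusted p = 7.07e-09 per the authors' deposited table). HIST2H2BE had 447 in the knockout and 143 in controls, and rose by 1.64 ± 0.29 (adjusted p = 5.53e-07 per the authors' deposited table). These were the genes of the group with the largest log2 changes in this line. HIST1H2AC had 681 in the knockout and 312 in controls, and rose by 1.12 ± 0.22 (adjusted p = 8.48e-06 per the authors' deposited table).

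HIST1H2BD had 931 normalized counts in the UM-UC-3 knockout and 495 in controls, and rose by 0.91 ± 0.25 (adjusted p = 0.00172 per the authors' deposited table). HIST1H2BK, at 1545 in the knockout and 943 in controls, rose by 0.71 ± 0.27 (adjusted p = 0.0327 per the authors' deposited table). HIST1H1E fell by 1.34 on the log2 scale with a standard error of 0.52 (adjusted p = 0.0341 per the authors' deposited table), at 85.5 in the knockout and 216 in controls. HIST1H1C, the other linker gene, had 1043 in the knockout and 615 in controls, and its log2 change of 0.76 ± 0.46 was not called (adjusted p = 0.196 per the authors' deposited table). HIST1H4H had 61.6 in the knockout and 36.1 in controls, and its log2 change of 0.77 ± 0.47 was not called either (adjusted p = 0.202 per the authors' deposited table).

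The total knockouts of both lines share no library, and the change of each gene in A-375 was set against that in UM-UC-3. All 8 log2 changes were greater in A-375, as were those of the 14 other replication-dependent histone entries found in both tables, against 5430 of 12642 shared genes. Entries with low counts, HIST1H4H included, may have kept an A-375 row only where knockout values were higher. The signs of the 14 are therefore a description and no support for those of the 8. Because the 8 genes were chosen with the A-375 values known, their differences are given with intervals, as a description. HIST3H2A had nearly equal changes, with a difference of 0.10 ± 0.38 (A-375 minus UM-UC-3, log2) and a 95% interval from -0.65 to 0.86. HIST1H2BD had the largest difference, 2.81 ± 0.94, with an interval from 0.96 to 4.66. For HIST2H2BE the difference was 1.11 ± 0.56, with an interval from 0.01 to 2.22, and for HIST1H2BK it was 1.52 ± 0.55. HIST1H1C differed by 1.76 ± 0.71 and HIST1H2AC by 1.73 ± 0.67. The intervals of HIST1H1E (-0.20 to 3.12) and HIST1H4H (-0.63 to 2.34) held 0.

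**Figure D3:**
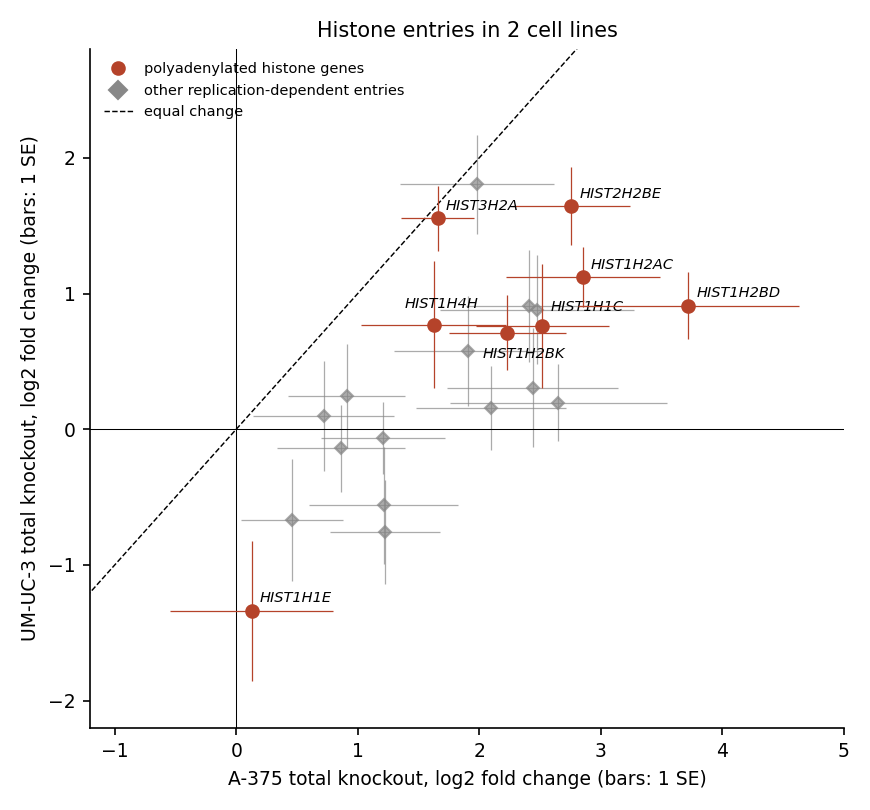
Log2 fold change in the A-375 total knockout (x axis) and the UM-UC-3 total knockout (y axis) for the 8 histone genes (circles) and 14 other replication-dependent entries (diamonds), with 1 standard error as bars and equal change as the dashed line. All points lie below the line, HIST3H2A closest to it among the named genes and HIST1H2BD farthest.

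Other replication-dependent histone entries were taken by name, as every entry that began with HIST1 to HIST4 and was not one of the 8. Whether each encodes a protein was not checked, so pseudogenes may be among them. In the A-375 total knockout 8 of 18 were called higher and 0 lower, with a median log2 change of 1.22 and all 18 values above 0. Of all genes in that table, 5.07% were called higher and 5.74% lower. Among the entries called were the H2A genes HIST2H2AA3 (3.92 ± 0.93), HIST1H2AE (2.65 ± 0.89) and HIST1H2AI (1.91 ± 0.61) per the authors' deposited table. The H2B genes were HIST1H2BG (2.48 ± 0.80) and HIST1H2BC (2.44 ± 0.70) per the authors' deposited table. The H3 genes were HIST1H3E (2.41 ± 0.53), HIST1H3H (2.09 ± 0.62) and HIST1H3D (1.98 ± 0.63) per the authors' deposited table, so all 3 H3 entries measured were called. Mean normalized counts of these 18 entries ran from 13.6 to 82.1. Of the group, HIST1H4H (32.5) and HIST1H1E (47.9) lay in that range. The gene filter is not known. Entries this low, HIST1H4H included, may have kept a row only where knockout values were higher, so their count and signs are a description. In UM-UC-3, 1 of 16 such entries was called higher, HIST1H3D (1.80 ± 0.36, adjusted p = 1.33e-05 per the authors' deposited table), and 0 lower, with a median of 0.13. The long-form table held 3 of them, HIST1H2BN, HIST2H2BA and HIST2H2BF, with log2 changes from -0.84 to -0.53. In the authors' DESeq2 fit 0 of the 3 were called and 0 had an unadjusted p under 0.05.

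Replacement histones are variants mostly made outside S phase from polyadenylated mRNAs, although H2AFX also has a stem-loop form. They had 0 of 12 higher and 1 lower in the A-375 total knockout, with a median of -0.07. The lower one was H2AFY2, a macroH2A gene (-1.34 ± 0.31, adjusted p = 0.000735 per the authors' deposited table). In the UM-UC-3 total knockout, 1 of 12 was higher and 7 were lower, with a median of -0.54. The higher one was H1F0, which encodes linker histone H1.0 (1.06 ± 0.19, adjusted p = 4.63e-07 per the authors' deposited table). H2AFX, whose phosphorylated product marks DNA breaks, changed by -1.08 ± 0.18 (adjusted p = 8.01e-08) and H2AFZ, a variant found at promoters, by -1.03 ± 0.18 (adjusted p = 7.31e-07) per the authors' deposited table. H2AFY2 (-0.63 ± 0.17, adjusted p = 0.00151) was lower as well per the authors' deposited table. None of the 12 was called in the long-form knockout, and 0 had an unadjusted p under 0.05 in the authors' DESeq2 fit.

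Genes that switch on histone transcription had 0 of 11 higher and 2 lower in the A-375 total knockout, a median log2 change of -0.34. CASP8AP2, or FLASH, a factor of histone gene transcription and mRNA 3' ends, changed by -0.83 ± 0.18 (adjusted p = 0.000373 per the authors' deposited table). The cell-cycle transcription factor E2F2 changed by -1.34 ± 0.45 (adjusted p = 0.0339 per the authors' deposited table). In the UM-UC-3 total knockout, 3 of 11 were lower and 0 higher: E2F2 (-1.31 ± 0.24, adjusted p = 2.18e-06), E2F1 (-1.03 ± 0.27, adjusted p = 0.00103) and the kinase CDK2 (-0.61 ± 0.19, adjusted p = 0.0073) per the authors' deposited table.

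Factors that cut, bind or degrade histone mRNA had 0 of 23 higher and 1 lower in the A-375 total knockout. This was CPSF3, the nuclease that cuts histone and other pre-mRNAs (-0.65 ± 0.14, adjusted p = 0.000239 per the authors' deposited table). CPSF3 was also lower in UM-UC-3 (-0.59 ± 0.12, adjusted p = 1.93e-05 per the authors' deposited table), where 5 of 23 were lower and 3 higher. SRRT, or ARS2, a partner of the cap-binding complex (-0.73 ± 0.16, adjusted p = 8.03e-05), was lower there too per the authors' deposited table. The components of histone pre-mRNA cleavage ZNF473 (0.54 ± 0.11, adjusted p = 1.4e-05) and LSM11 (0.55 ± 0.14, adjusted p = 0.000825), part of the U7 particle, were higher per the authors' deposited table.

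Histone chaperones, which carry histones to DNA, had 3 of 20 lower and 0 higher in the A-375 total knockout and 9 of 20 lower and 1 higher in UM-UC-3. SUPT16H, a FACT subunit, changed by -1.09 ± 0.24 (adjusted p = 0.00036) in A-375 and by -0.72 ± 0.13 (adjusted p = 7.16e-07) in UM-UC-3 per the authors' deposited tables. NASP, which holds H3 and H4, changed by -0.66 ± 0.23 (adjusted p = 0.0447) in A-375 and by -1.13 ± 0.18 (adjusted p = 4.15e-08) in UM-UC-3 per the authors' deposited tables. UBN1, of the HIRA complex, was lower in A-375 (-0.45 ± 0.14, adjusted p = 0.0179 per the authors' deposited table). The UM-UC-3 levels of TONSL (-1.06 ± 0.18, adjusted p = 9.54e-08) and CHAF1A (-0.78 ± 0.17, adjusted p = 4.88e-05), which act at replication forks, were lower than in controls per the authors' deposited table. In the long-form knockout 0 genes of the transcription, mRNA and chaperone lists were called. In either direction, 3 of 11, 4 of 23 and 3 of 20 had an unadjusted p under 0.05 in the authors' DESeq2 fit. These counts are a description, since the share of all genes was not worked out.

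The median of the S-phase genes lay on the other side of 0 from that of the histone group in each comparison. Of 34 S-phase genes, 3 were called lower and 0 higher in the A-375 total knockout (median -0.60), and 28 lower and 0 higher in UM-UC-3 (median -0.87). In the long-form knockout their median was 0.35 with 33 of 34 values above 0 and 0 called. In either direction, 11 of 34 had an unadjusted p under 0.05 in the authors' DESeq2 fit. The share of all genes was not worked out, so this count is a description. POLA1, the catalytic subunit of the polymerase that primes replication, changed by -1.12 ± 0.20 in A-375 (adjusted p = 8.46e-06) and -0.98 ± 0.22 in UM-UC-3 (adjusted p = 0.000145) per the authors' deposited tables. The clamp loader gene RFC4 (-0.87 ± 0.08) and the thymidylate synthase gene TYMS (-2.35 ± 0.25) had the smallest adjusted p of the list in UM-UC-3 per the authors' deposited table. In bulk RNA, fewer cells in S phase and less RNA per cell cannot be told apart, and the part of cell-cycle state in the histone values was not tested. E2F1, CCNE1 and CCNE2 are in both the transcription and S-phase lists, and MCM2 in both the chaperone and S-phase lists.

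**Figure D4:**
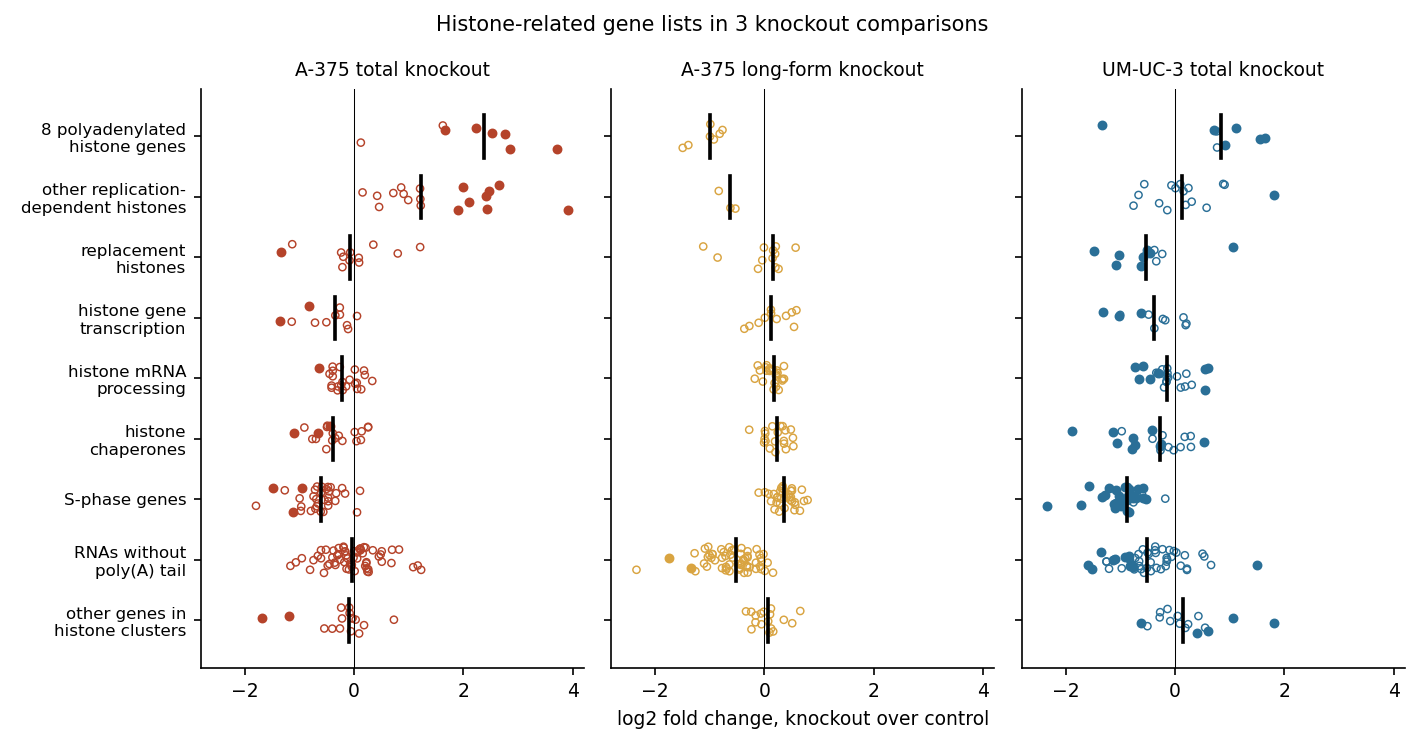
Log2 fold change (x axis) of every measured gene of 9 lists (rows) in the 3 comparisons, with filled points for genes past the authors' adjusted p of 0.05 and a black bar for the median. The 8 histone genes have medians of 2.38, -0.99 and 0.84 from left to right, and S-phase genes -0.60, 0.35 and -0.87.

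Genes of growth arrest had 2 of 11 higher and 0 lower in the A-375 total knockout. Their median log2 change was -0.05, beside -0.05 for all genes, with 5 values above 0 and 6 below. The CDK inhibitor CDKN1A rose by 1.69 ± 0.29 (adjusted p = 2.03e-06) and BTG2 by 1.13 ± 0.32 (adjusted p = 0.00977) per the authors' deposited table. In the UM-UC-3 total knockout, 4 of 9 were higher and 2 lower, with a median of 0.43. BTG1 (1.27 ± 0.16, adjusted p = 2.31e-13), CCNG2 (1.34 ± 0.21, adjusted p = 2.33e-08) and the CDK inhibitor CDKN1B (0.71 ± 0.15, adjusted p = 3.03e-05) rose per the authors' deposited table. The lower ones were the CDK inhibitor CDKN2C (-0.88 ± 0.28, adjusted p = 0.00884) and E2F4 (-0.42 ± 0.15, adjusted p = 0.0211) per the authors' deposited table. CDKN1A (0.33 ± 0.27) and BTG2 (0.43 ± 0.23) were not called in UM-UC-3 per the authors' deposited table. None of 11 was called in the long-form knockout, where 1 had an unadjusted p under 0.05 in the authors' DESeq2 fit. No share of all genes was worked out beside it.

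RNAs that lack a poly(A) tail, such as small nuclear and nucleolar RNAs, RMRP and 7SK, were taken by name. Whether their reads measure untailed RNA in the libraries was not tested. In the A-375 total knockout 0 of 63 were called, and their median was -0.04, beside 2.38 for the histone genes. At an unadjusted p under 0.05 in the authors' DESeq2 fit there were 3, with no share of all genes worked out. The most abundant of them, named after their values were seen, were 7SL (RN7SL1 and RN7SL2), part of the signal recognition particle, and 7SK (RN7SK), which holds an elongation factor inactive. In the A-375 total knockout their log2 changes were 1.23 ± 0.59 for RN7SL1, 1.17 ± 0.68 for RN7SL2 and 1.08 ± 0.63 for RN7SK, and that of RMRP was 0.82 ± 0.97, per the authors' deposited table. In the long-form knockout those of RN7SL1, RN7SL2, RN7SK and RMRP were -0.32 ± 0.52, -0.78 ± 0.83, -0.43 ± 0.63 and -2.34 ± 0.91 per the authors' deposited table. All 4 lay on the same side of 0 as the histone medians in both A-375 tables. They were picked after their values were seen, so their signs are a description. Of all 63 RNAs in the A-375 total knockout, 30 lay above 0 and 33 below. The UM-UC-3 values of the 4 RNAs lay on the other side from the histone median of 0.84, and none of the 4 was called in any table. The list's medians were -0.52 in the long-form knockout, with 2 of 60 lower and 0 higher, and -0.51 in UM-UC-3, with 10 of 52 lower and 1 higher. The nucleolar RNAs SNORA48 (-1.34 ± 0.36, adjusted p = 0.0282) and SNORA68 (-1.75 ± 0.50, adjusted p = 0.0496) were the ones called in the long-form knockout per the authors' deposited table. In the long-form table these RNAs and the histone genes had medians on the same side of 0, with 57 of 60 of the RNAs below 0. The part of RNA capture in the histone values was not tested.

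Genes of other kinds that lie inside the histone clusters were taken from the annotation. The HIST1 cluster (chromosome 6, 25726132 to 27893843) held 17 of them in the tables, the HIST2 cluster (chromosome 1, 149782689 to 149887916) 1 and the HIST3 cluster (chromosome 1, 228424845 to 228460470) 0. In the A-375 total knockout 2 of 16 were lower and 0 higher, with a median of -0.08. These were the nucleosome-binding protein gene HMGN4 (-1.69 ± 0.34, adjusted p = 9.56e-05) and the pseudogene ZNF204P (-1.19 ± 0.42, adjusted p = 0.0468) per the authors' deposited table. In the UM-UC-3 total knockout, 4 of 16 were higher and 1, HMGN4 again (-0.63 ± 0.12, adjusted p = 5e-06 per the authors' deposited table), was lower. The higher ones included PRSS16 (1.80 ± 0.39, adjusted p = 7.6e-05) and ZNF391 (1.05 ± 0.23, adjusted p = 8.85e-05) per the authors' deposited table. In the long-form knockout 0 of 17 were called, and the median was 0.07. At an unadjusted p under 0.05 in the authors' DESeq2 fit there were 3, with no share of all genes worked out.

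The genes most like the histone group were sought among 10471 other genes that averaged 100 or more normalized counts in all 3 tables, by the distance of their 3 log2 changes to the medians of the group. The nearest was APLP1 (distance 0.38), a homologue of the amyloid precursor, with log2 changes of 2.16, -0.69 and 0.93 in the A-375 total, long-form and UM-UC-3 tables. GTPBP6 (0.58), GDNF (0.58), RGAG4 (0.65) and PARD3B (0.79) followed. With 3 comparisons, of which the A-375 pair may share controls, this likeness is a description only.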

How the data were processed

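RNA was sequenced from 33 libraries of UM-UC-3 and A-375 cells, made per the labels' protocols with a stranded mRNA kit. The submitters' processing notes say that the authors used StringTie, HISAT2, DESeq2 and SAMtools, without versions, and name the hg38 build. The sources used here do not give the annotation, gene filter, model formula, use of strand or the control libraries that entered a fit. The authors' DESeq2 output was deposited as 3 tables. Their signal column is the mean normalized count over the libraries of a fit, per the file headers. The log2 columns hold the change that the authors fitted (knockout over control) with its standard error, the score column their Wald statistic, and the p-value columns, per the file headers, the p, a q-value and a Benjamini-Hochberg adjusted p. The depth of the libraries is unknown, and precision is given by standard errors.

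The histone genes and lists were chosen with earlier results of these data known. Calls are the authors' adjusted p under 0.05 over all genes of a table. Counts at an unadjusted p under 0.05 in lists other than the histone group take either direction. The share of all genes in either direction was not worked out, so these counts are a description. Intervals at 95% are normal, from the deposited standard error. Implied levels follow from the fold change, the mean normalized count and the library numbers. Differences between lines are differences of log2 changes with summed squared errors, adjusted over 12642 shared genes, and this step was tested on simulated data. Labels do not give separate cultures for libraries of 1 clone, so p-values measure the spread between these libraries, which may be technical. Genes outside the group were named by rule: other HIST1 to HIST4 entries called in any table, up to 4 called genes of a list with the smallest adjusted p in each table, and the 5 genes nearest to the group's medians. CDKN2C and E2F4 were named outside this rule, after their values were seen. Positions, transcript ends and shared 50-base stretches came from GENCODE release 29 on hg38, and promoters and symbols (8 of 8 matched) from RefSeq GRCh38.p14. Alternatives were the q-value, thresholds of 0.01 and 0.1, minimum mean counts of 10 and 100, centring on the median of all genes, a test against a 1.5-fold change, other controls for implied levels and leaving out each gene. Python 3.11.15, numpy 2.4.6, pandas 2.3.3, scipy 1.17.1 and matplotlib 3.10.9 were used.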

Additional observations from a re-analysis of the deposited data

Results flagged for a closer look

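HIST1H2BD had a greater change in A-375 than in UM-UC-3 by 2.81 ± 0.94 on the log2 scale, with a 95% interval from 0.96 to 4.66. It is listed because this difference was large against its error, as it was for 10.4% of 12642 shared genes. The difference includes the A-375 value with which the gene was chosen, so it is a description and no test of it is given. The log2 changes were 3.72 ± 0.91 in A-375 and 0.91 ± 0.25 in UM-UC-3 per the authors' deposited tables, and 5.95% of the 50-base stretches of its transcript are shared with other genes.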

How the results depend on the processing

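Against a 1.5-fold change in place of no change, 1 of the 8 histone genes was called in the A-375 total knockout (HIST2H2BE), against 6, and 2 in the UM-UC-3 total knockout (HIST3H2A and HIST2H2BE), against 6. At an adjusted p under 0.1, 2 were called lower in the long-form knockout (HIST2H2BE and HIST3H2A), against 0. By the q-value, 4 other replication-dependent entries were called in UM-UC-3 (3 higher and 1 lower), against 1, an alternative chosen after seeing the data. The other counts of genes called in a table stayed within 1.5 times. Centring both tables on their shared genes moved the A-375 minus UM-UC-3 difference of HIST1H2BK to 1.60, past the threshold used to list HIST1H2BD, where it was 1.52 and short of it as deposited. Centring moved the medians of the group to 2.43, -1.01 and 0.81 in the A-375 total, long-form and UM-UC-3 tables. Of 164 values of single histone genes under the alternatives, 147 kept their side of the threshold, 11 fell short of it and 6 passed it. Most alternatives leave the log2 change as deposited, so they do not test its direction. No paired analysis was possible because the tables hold no value per library. Leaving out each replicate was not possible for the same reason, and leaving out genes with near-identical proteins was not run. Unknown control libraries, with as few as 1 in UM-UC-3, limit every value.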
